A study of Homo sapiens with 6 samples.

Results

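The genes described here are 10 type II keratins, KRT1, KRT4, KRT5, KRT6A, KRT6B, KRT6C, KRT7, KRT80, KRT81 and KRT86, chosen by gene symbol from a deposited expression table of 18678 genes. The table held 9 of them, and 8 passed the filter on low values (an average of 1 FPKM or more across libraries). KRT6C was not in the table and was not analysed here, and KRT8, the simple-epithelial type II keratin, was not in the table either. KRT1 was under the filter and is given by its values only. KRT4 and KRT6B passed the filter only through the Cal27 group, so a lower level in the other group was built into their selection.

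The libraries were stranded mRNA libraries of Cal27, an established human squamous carcinoma cell line of the tongue, and of Cal27-shGRK2, its derivative that expresses a hairpin directed at the kinase GRK2. Both were grown in DMEM with 10% serum and harvested at 70% confluency, with no other treatment named. The labels name 3 libraries in each group, but the Cal27-shGRK2 columns numbered 0 and 1 held the same value in all 18678 genes, while other pairs of columns within a group shared 55 to 94. They were counted as 1 library, which left 3 Cal27 and 2 Cal27-shGRK2 libraries. The sources used here do not say whether the Cal27 cells carried a control hairpin, how many hairpins or clones made up Cal27-shGRK2, nor do they tie the libraries to separate cultures. The p-values therefore reflect only how these libraries spread, which may be technical. Levels are in FPKM, fragments per kilobase of transcript scaled for the size of the library. Levels of different genes are thus compared per length, and the read depth behind them is not known.

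Keratins are the intermediate filament proteins of epithelia. A filament is built from pairs of a type I and a type II chain, and each epithelium and layer is known for its own pair: KRT5 with KRT14 in the basal layer, KRT1 with KRT10 in the upper epidermis, KRT4 with KRT13 in the upper layers of the oral mucosa, KRT6 with KRT16 or KRT17 in activated keratinocytes, and KRT7 with KRT19 in simple and glandular epithelia. KRT81 and KRT86 are hair keratins, known from the cortex of the hair shaft, and KRT80 is found in many epithelia. The human type II genes lie together on chromosome 12.

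All 8 tested type II keratins differed between the groups, 4 higher and 4 lower in Cal27-shGRK2. The same test called 29.6% of all tested genes, 15.0% higher and 14.6% lower. Among the 4 lower, KRT4 and KRT6B passed the filter only through Cal27, so their direction was built into their selection. KRT81 rose 15.8-fold, from a trace to the fourth highest of these genes, and KRT86, KRT7 and KRT80 rose 2.55-fold, 1.85-fold and 1.61-fold. KRT5, the most abundant of the 9 in both groups, fell 2.89-fold, KRT6A fell 10.6-fold and KRT6B 9.06-fold. KRT4 went from about 5 FPKM to values near 0. The test was limma on log2(FPKM + 1) with Benjamini-Hochberg adjustment over the 13377 genes that passed the filter and a threshold of 0.05. In the 9 measured keratins the highest library of the lower group stayed under the lowest of the other, which 53.3% of all tested genes also showed. The median log2 fold change was -0.27 over the 8 tested keratins, KRT4 and KRT6B included, and -0.01 over all tested genes.

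**Figure D1:**
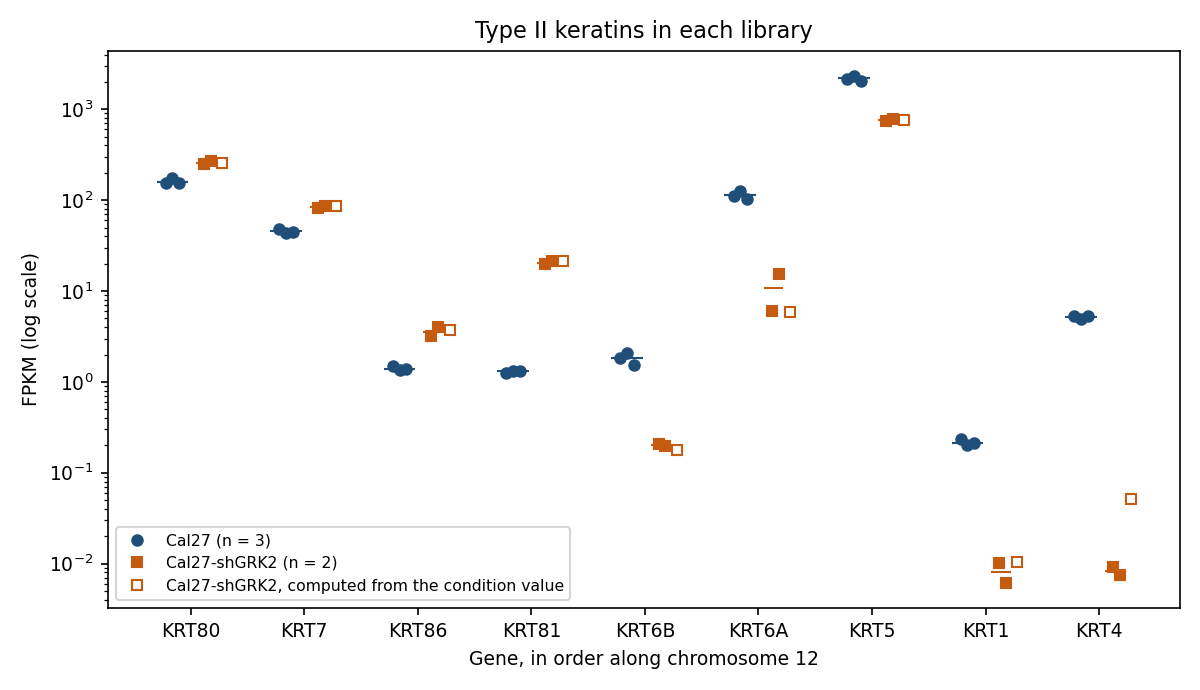
Level of each measured type II keratin in every library, in FPKM on a log axis, in gene order along chromosome 12. Filled circles are Cal27 libraries, filled squares the 2 distinct Cal27-shGRK2 libraries, and short bars their means. Open squares are a further Cal27-shGRK2 value computed from the authors' condition value and left out of the main test. KRT80, KRT7, KRT86 and KRT81 lie higher and the other 5 lower in Cal27-shGRK2.

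As a check of the labels, GRK2 (listed under its older symbol ADRBK1) stood at 55.3, 59.4 and 55.8 FPKM in the Cal27 libraries and at 17.3 and 16.6 FPKM in Cal27-shGRK2, 3.35-fold lower. Of all tested genes 2008 (15.0%) were called higher and 1949 (14.6%) lower. After rescaling every library to a common total 2850 were called higher and 1512 lower. That rescaling set the median log2 fold change of all genes to 0.05, and no other scaling moved it further. The direction and call of KRT4, KRT5, KRT6A, KRT6B, KRT7, KRT80, KRT81 and KRT86 were the same under that rescaling, under median-of-ratios scaling and under quantile normalization. All 12 markers of squamous epithelium on a fixed list were in the table, 3 called higher and 9 lower, with summed FPKM of 4298 to 4605 in Cal27 and 2215 to 2257 in Cal27-shGRK2. KRT5 is 1 of these 12 and carries much of that sum, and the other 11 (3 called higher, 8 lower) summed to 2226 to 2283 and 1476 to 1484 FPKM. Among those called lower, DSG3 was under 1 FPKM in both Cal27-shGRK2 libraries and passed the filter only through Cal27. Of 8 fibroblast markers 4 were in the table (summed FPKM 4.35 to 4.71 against 4.38 to 4.46), and of 7 melanocyte and neural markers only PMEL was, at under 1 FPKM. Of 9 blood and endothelial markers CD68 and CDH5 were in the table and were called higher (summed FPKM 4.33 to 5.16 against 10.3 to 11.3), whereas PTPRC, PECAM1 and VWF were not in it. The part of these markers in the keratin results was not tested. In bulk RNA, fewer cells of a type and less RNA per cell cannot be told apart.

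Several of these genes are near copies, and how reads are divided between them bears on every value of the hair keratins and of the KRT6 genes. KRT81 and KRT86 share 94.2% of 1454 aligned coding bases (GENCODE v29 transcripts), with an identical run of 605 bases. Of all 50-base windows of the KRT81 transcript, 38.4% also occur in KRT86, and 30.3% of its 100-base windows occur in some other gene. KRT6A and KRT6B share 97.5% of their coding bases, KRT6A and KRT6C 97.9%, and KRT6B and KRT6C 98.5%. In KRT6A 39.1% and in KRT6B 47.1% of 50-base windows occur in another gene, mostly KRT6C. KRT5 shared 3.99% of its windows, KRT7 0.997%, KRT80 0.416%, and KRT1 and KRT4 shared 0. The sources used here do not state the read length. The stretches of the KRT6 genes shown here are on the coding strand 5′ to 3′ of hg38, with the differing bases in capitals. They are the 60 coding bases within an exon in which KRT6B and KRT6C, counted together, differ most from KRT6A. They are shown because only reads over such differing bases tell these copies apart. They lie in exon 2 of each gene, coding bases 663 to 722, all on the minus strand, at chr12:52491555-52491614 for KRT6A, chr12:52450439-52450498 for KRT6B and chr12:52472099-52472158 for KRT6C.
KRT6A: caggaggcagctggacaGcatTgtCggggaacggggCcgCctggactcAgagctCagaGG
KRT6B: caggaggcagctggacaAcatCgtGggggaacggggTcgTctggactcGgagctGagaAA
KRT6C: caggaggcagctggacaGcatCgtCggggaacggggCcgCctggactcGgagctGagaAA
Even in this window, chosen for the most differences from KRT6A, 9 bases separate KRT6A from KRT6B and 5 separate KRT6A from KRT6C.

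KRT81, the hair keratin with the largest rise, measured 1.26, 1.33 and 1.32 FPKM in the Cal27 libraries and 19.9 and 21.3 FPKM in the Cal27-shGRK2 libraries. The groups lay far apart and each was narrow, with means of 1.31 ± 0.038 (SD, n = 3) and 20.6 ± 0.998 (SD, n = 2). The log2 fold change was 3.23 ± 0.08 (SE) with an adjusted p of 6.8e-13 in limma, and 8 of the 13377 tested genes rose by more. The authors' deposited table gave a log2 fold change of 3.99 and a q of 0.000612 on FPKM without a pseudocount.

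KRT86, its neighbour and near copy, measured 1.48, 1.35 and 1.37 FPKM in the Cal27 libraries and 3.16 and 3.98 FPKM in Cal27-shGRK2. Its groups also did not overlap, and the log2 fold change was 0.92 ± 0.11 (SE; limma adjusted p 8.0e-06). In Cal27 the pair stood at nearly equal levels, with a ratio of KRT81 to KRT86 of 0.853, 0.987 and 0.963. In Cal27-shGRK2 the ratio was 6.29 and 5.35. The difference between the group means was 19.3 FPKM for KRT81 and 2.17 FPKM for KRT86, so the KRT86 difference came to 11.3% of that of KRT81. How far reads from KRT81 entered the KRT86 value was not tested. Counted as 1 feature, KRT81 and KRT86 together rose by a log2 fold change of 2.76 (limma adjusted p 1.4e-12).

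KRT7, the type II keratin of simple and glandular epithelia, measured 47.6, 43.9 and 44.9 FPKM in the Cal27 libraries and 82.0 and 86.4 FPKM in Cal27-shGRK2. Every Cal27-shGRK2 library was above every Cal27 library, and the log2 fold change was 0.88 ± 0.06 (SE; limma adjusted p 5.2e-08). KRT7-AS, a transcript read from the opposite strand within KRT7, measured 3.13, 3.19 and 3.72 against 6.06 and 6.41 FPKM and was also called higher (log2 fold change 0.74, limma adjusted p 1.9e-05). It overlaps 282 exonic bases of KRT7, 6.89% of them, and since the sources used here do not state the strand setting of the counting, reads of that overlap cannot be assigned to either gene with certainty.

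KRT80, the second most abundant of these genes in both groups, measured 153, 175 and 153 FPKM in the Cal27 libraries and 248 and 269 FPKM in Cal27-shGRK2. The groups were separate and the rise was the smallest of the 4, with a log2 fold change of 0.69 ± 0.07 (SE; limma adjusted p 2.4e-06). In absolute level it was the largest of the 4 rises, from a mean of 160.1 ± 12.6 (SD, n = 3) to 258 ± 15.2 FPKM (SD, n = 2).

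KRT5, the basal-layer keratin, measured 2167, 2322 and 2073 FPKM in the Cal27 libraries and 739.6 and 773 FPKM in Cal27-shGRK2. No library of one group came near the other, with means of 2187 ± 126 (SD, n = 3) and 756 ± 23.9 (SD, n = 2), and KRT5 stayed above every other measured type II keratin in all 5 libraries. Its log2 fold change was -1.53 ± 0.06 (SE; limma adjusted p 1.1e-10), and 89 tested genes fell by more.

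KRT6A, a keratin of activated and wounded epithelium, measured 110.2, 127 and 104 FPKM in the Cal27 libraries and 6.03 and 15.4 FPKM in Cal27-shGRK2. The groups were far apart, but the Cal27-shGRK2 libraries differed from each other 2.56-fold. Among 4668 genes at 5 to 20 FPKM in that group the median ratio between those libraries was 1.07, and 27 genes (0.578%) had a ratio as large. The log2 fold change was -3.42 ± 0.46 (SE; limma adjusted p 0.019), and 9 tested genes fell by more. The call was lost when any single Cal27 library was left out, with adjusted p-values of 0.081 without replicate 0, 0.076 without replicate 1 and 0.083 without replicate 2, while the log2 fold change stayed between -3.48 and -3.33. It was -4.03 without Cal27-shGRK2 replicate 2 and -2.80 without the library shared by replicates 0 and 1, each with its call.

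A second feature, AC055736.3, had the same locus as KRT6A in the table and is not in GENCODE v29 under its identifier. It measured 467, 342 and 461 FPKM in the Cal27 libraries and 17.8 and 5.24 FPKM in the 2 Cal27-shGRK2 libraries, and was called lower (log2 fold change -5.28, limma adjusted p 0.013), whereas the authors' deposited table gave it a q of 0.803. In each group the library with the highest KRT6A value had the lowest AC055736.3 value. The part of this feature in the KRT6A values was not tested.

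**Figure D2:**
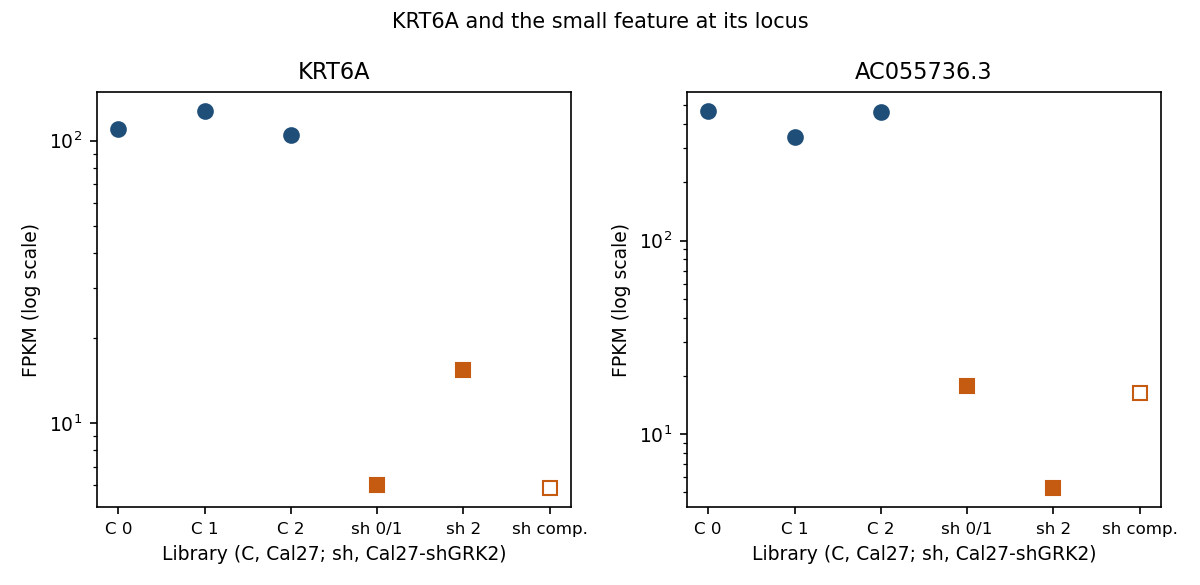
KRT6A (left) and AC055736.3 (right), the feature listed at the same locus, in FPKM on log axes by library. C 0 to C 2 are Cal27 replicates, sh 0/1 the shared Cal27-shGRK2 column, sh 2 the other library and sh comp. the value computed from the authors' condition value; KRT6A is highest and AC055736.3 lowest in C 1 among Cal27 and in sh 2 among Cal27-shGRK2.

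KRT6B, the near copy of KRT6A, measured 1.83, 2.09 and 1.54 FPKM in the Cal27 libraries and 0.205 and 0.197 FPKM in Cal27-shGRK2. The groups did not overlap. The log2 fold change on the FPKM + 1 scale was -1.23 ± 0.12 (SE; limma adjusted p 9.8e-07), which understates the change of a gene at this level. KRT6A exceeded KRT6B 60.2-fold to 67.7-fold in Cal27, and 29.4-fold and 78.2-fold in Cal27-shGRK2, so the wide spread of KRT6A in that group was not shared by KRT6B. Counted as 1 feature, KRT6A and KRT6B fell by 3.41 on the log2 scale (limma adjusted p 0.018).

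KRT4, the type II keratin of the upper layers of the oral mucosa, measured 5.26, 4.98 and 5.34 FPKM in the Cal27 libraries and 0.00918 and 0.00743 FPKM in Cal27-shGRK2. Its level hardly varied among the Cal27 libraries, and both Cal27-shGRK2 values are so close to 0 that no fold is given. The log2 fold change on the FPKM + 1 scale was -2.62 ± 0.10 (SE, limma adjusted p 3.4e-11), and 23 tested genes fell by more. On that scale the Cal27 mean was 2.63, so a larger fall was hardly possible and the rank depends on the starting level. With a pseudocount of 0.1 the log2 fold change was -5.61.

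KRT1, the type II keratin of the upper epidermis, was low everywhere, at 0.234, 0.200 and 0.212 FPKM in the Cal27 libraries and 0.0102 and 0.00619 FPKM in Cal27-shGRK2. The Cal27 libraries were all higher, at levels under the filter, and the authors' deposited table gave a q of 0.102 and did not mark it as significant. It marked the other 8 measured keratins as significant.

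The order of levels therefore differed between the groups. In Cal27 it ran KRT5, KRT80, KRT6A, KRT7, KRT4, KRT6B, KRT86, KRT81, KRT1, and no neighbours in that order overlapped. In Cal27-shGRK2 it ran KRT5, KRT80, KRT7, KRT81, KRT6A, KRT86, KRT6B, KRT4, KRT1, and only KRT4 and KRT1 overlapped. The hair keratin KRT81 thus stood above KRT6A in both Cal27-shGRK2 libraries and below it in all 3 Cal27 libraries.

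Added together, the 9 keratins came to 2488, 2678 and 2384 FPKM in the Cal27 libraries and to 1098 and 1170 FPKM in Cal27-shGRK2. KRT5 made up 86.7% to 87.1% of the sum in Cal27 and 67.3% and 66.1% in Cal27-shGRK2. The 4 keratins that rose, KRT80, KRT7, KRT86 and KRT81, made up 8.17% to 8.40% in Cal27 and 32.1% and 32.5% in Cal27-shGRK2. KRT5 exceeded KRT7 by 45.5-fold to 52.9-fold in Cal27 and by 9.02-fold and 8.95-fold in Cal27-shGRK2. These shares follow from the levels given above and are no separate evidence.

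**Figure D3:**
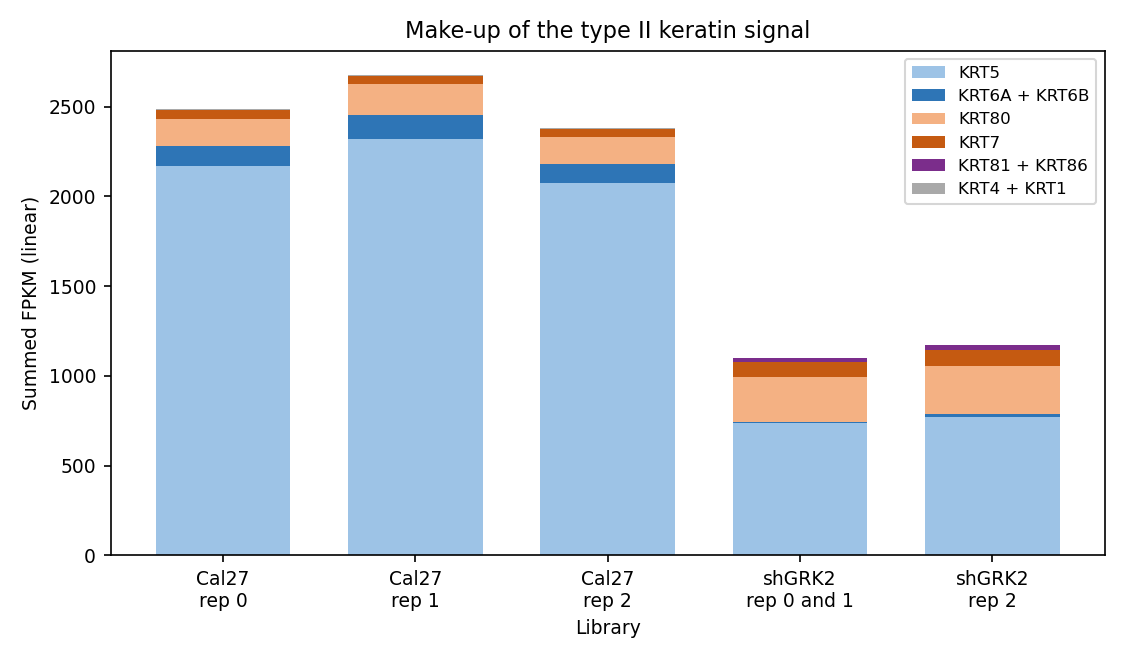
Summed FPKM of the 9 measured type II keratins in each distinct library, on a linear axis from 0, stacked by gene. The sum is 2384 to 2678 FPKM in the Cal27 libraries and 1098 and 1170 FPKM in Cal27-shGRK2, and KRT80 and KRT7 take a larger share of the shorter bars.

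Along chromosome 12 the keratins that rose and those that fell lay in separate stretches. In GENCODE v29 (hg38) KRT80 spans 52168996 to 52192000 on the minus strand, KRT7 spans 52232520 to 52252186 on the plus strand, KRT86 spans 52249300 to 52309163 on the plus strand, and KRT81 spans 52285913 to 52291534 on the minus strand, within the span of KRT86 with no exonic overlap. These 4 lie within 145 kb and all rose. Of the 9 annotated rows of that stretch, 5 were tested and 5 were called higher, and in all 9 every Cal27-shGRK2 library was above every Cal27 library, with log2 fold changes of 0.13 to 3.23. Over all tested genes 15.0% were called higher, and 53.3% had groups that did not overlap in either direction. Those not tested were the noncoding LINC00592, the pseudogene KRT87P, C12orf80 and AC121757.1. For these, the share over tested genes is no background. The 9 rows are also not separate measurements. KRT81 shares 38.4% of its 50-base windows with KRT86 and 9.04% with KRT87P, and KRT7-AS lies within KRT7. LINC00592 measured 0.175, 0.201 and 0.159 FPKM against 0.453 and 0.610 FPKM. AC121757.1 measured 0.389, 0.871 and 0.564 FPKM against 0.926 and 1.23 FPKM. Its further value computed from the authors' condition value, 0.674 FPKM, lay within the Cal27 range. A further feature, AC021066.1, listed at the locus that the table gives to KRT7, KRT86 and KRT81 together, was not called (8.21, 8.97 and 12.7 FPKM against 24.1 and 8.51 FPKM, limma adjusted p 0.58).

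After a gap of 137 kb, whose 5 annotated coding genes (KRT75, KRT82, KRT83, KRT84 and KRT85) were not in the table, come KRT6B (52446651 to 52452126), KRT6C (52468516 to 52473785), KRT6A (52487174 to 52493257), KRT5 (52514575 to 52520687), KRT1 (52674736 to 52680407) and KRT4 (52806549 to 52814551), all on the minus strand. The table held 6 annotated rows of this stretch of 402 kb, these without KRT6C and with KRT78. Of the 5 tested, 4 were called lower, as were 14.6% of all tested genes. Among these calls KRT4 and KRT6B passed the filter only through Cal27, so their direction was built into their selection. KRT78, a type II keratin that is not among the 10, measured 1.74, 1.38 and 1.05 FPKM against 0.940 and 1.06 FPKM, and its groups overlapped (log2 fold change -0.25, limma adjusted p 0.16). Of the 10 nearest rows on the flanks of the cluster, 7 were tested and 0 were called in limma, with log2 fold changes of -0.15 to 0.23 over all 10. The share called over all tested genes, in either direction, was 29.6%. The positions were read with the directions already known, and the split was not tested.

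**Figure D4:**
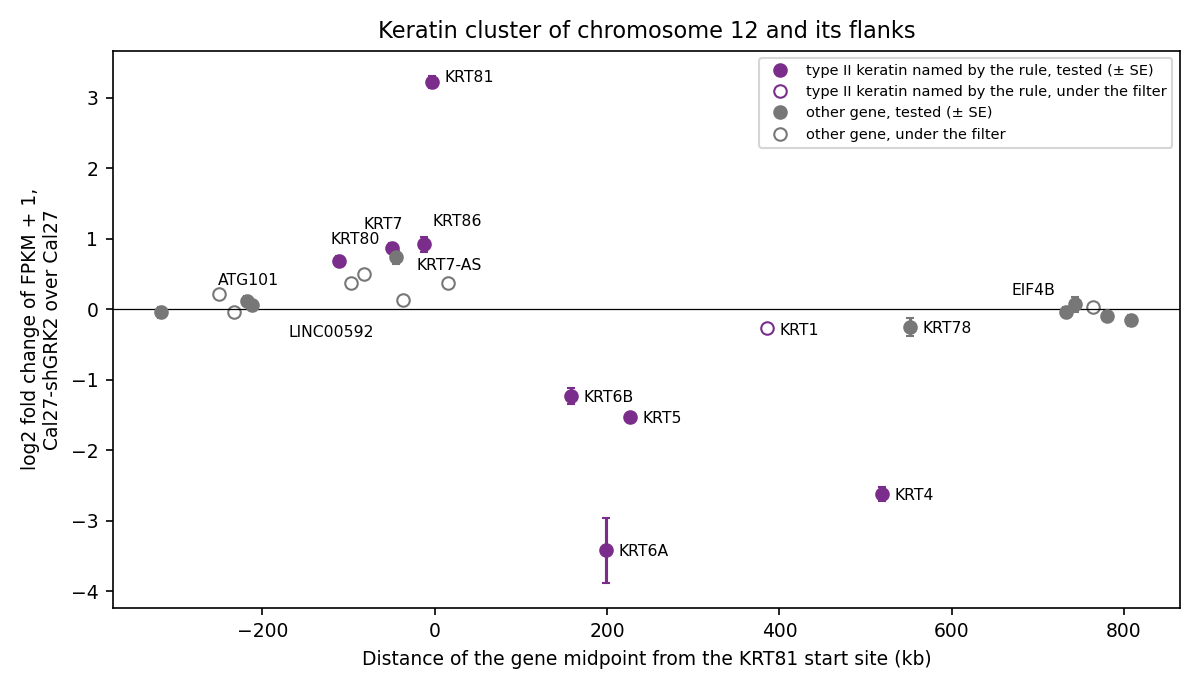
Log2 fold change of FPKM + 1 (Cal27-shGRK2 over Cal27) against distance of each gene's midpoint from the KRT81 start site in kb. Filled points were tested and carry ± 1 SE, open points were under the filter, purple marks the keratins described here and grey other genes; points from KRT80 to KRT86 lie above 0, points from KRT6B to KRT78 below 0, and the flanks near 0.

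Of the 6 type I partners, those of KRT4, KRT5, KRT6A and KRT6B fell. KRT13, the partner of KRT4, went from 25.6 ± 2.52 FPKM (SD, n = 3) to 0.166 ± 0.08 (SD, n = 2), a log2 fold change of -4.51, and KRT14, the partner of KRT5, from 18.9 ± 2.23 (SD, n = 3) to 0.197 ± 0.053 (SD, n = 2), a log2 fold change of -4.05. KRT17 went from a mean of 446 to 53.8 FPKM (log2 fold change -3.03) and KRT16 from 25.6 to 7.78 FPKM (-1.60), and these 4 passed the threshold in limma. KRT13 and KRT14 were under 1 FPKM in both Cal27-shGRK2 libraries, so like KRT4 and KRT6B they passed the filter only through Cal27. KRT16 measured 7.78 FPKM in both Cal27-shGRK2 libraries, in which its partner KRT6A differed 2.56-fold. KRT10 stood at 9.53 and 8.31 FPKM (log2 fold change -0.18, limma adjusted p 0.13). KRT19, the partner of the rising KRT7, was under the filter, at 0.650 FPKM in the Cal27 libraries and 0.755 FPKM in Cal27-shGRK2.

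The levels of a pair were unequal. KRT5 exceeded its basal partner KRT14 in both groups, at 2187 against 18.9 FPKM in the Cal27 libraries and 756 against 0.197 FPKM in Cal27-shGRK2. Of 28 type I keratins on the list, 9 were in the table and 6 were tested, of which 0 were called higher and 5 lower in limma (the fifth was KRT15), with a median log2 fold change of -2.31 that includes KRT13 and KRT14. Over all tested genes the shares called were 15.0% higher and 14.6% lower. The summed FPKM of the 9 type I keratins was 549 to 617 in Cal27 and 90.8 to 94.8 in Cal27-shGRK2. No type I keratin on the list was called higher beside the 4 type II keratins that were. That covers only the 6 tested: 19 of the list were not in the table, KRT18 among them, so whether those rose is not known.

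**Figure D5:**
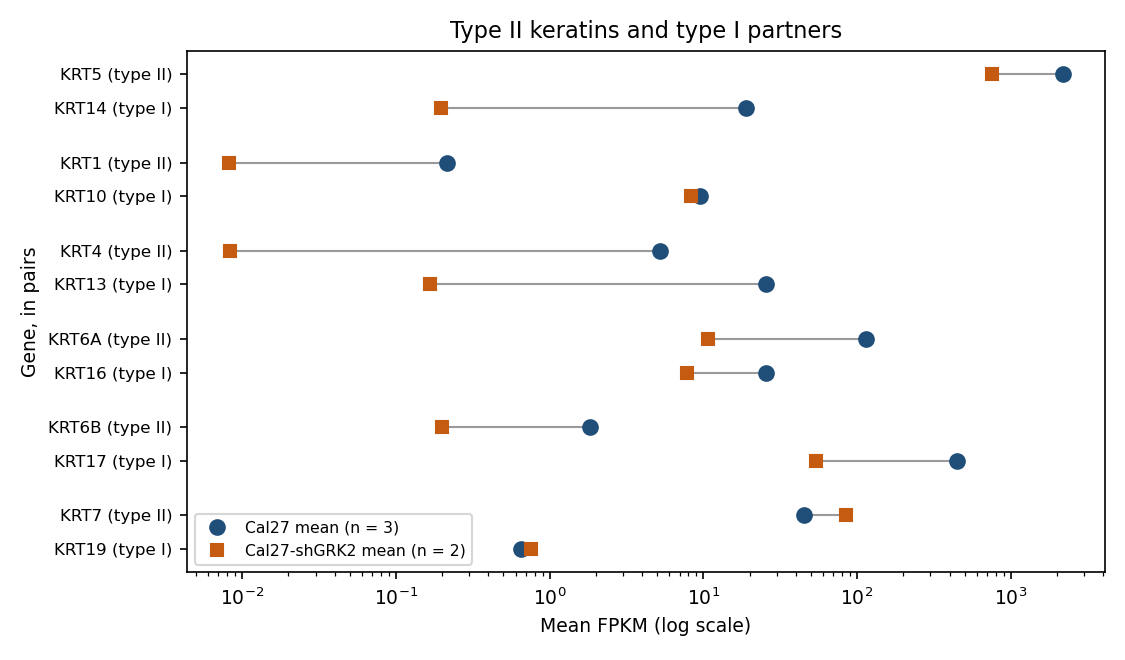
Mean FPKM (log axis) of type II keratins and of a known type I partner of each, Cal27 as circles (n = 3) and Cal27-shGRK2 as squares (n = 2), joined by a line for each gene. Both members of the KRT5-KRT14, KRT4-KRT13, KRT6A-KRT16 and KRT6B-KRT17 pairs were lower in Cal27-shGRK2, whereas KRT7 was higher and KRT19 near 0.7 FPKM in both groups.

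Other genes of the hair follicle did not all move with KRT81. Of 46 on the list 12 were in the table and 9 were tested, with 3 called higher, 4 lower and a median log2 fold change of -0.21. Over all tested genes the shares called were 15.0% higher and 14.6% lower. The hair keratin-associated proteins KRTAP4-1 (log2 fold change 0.67) and KRTAP2-3 (0.66) and the lipase LIPH (0.56) rose, KRTAP4-1 having passed the filter only through Cal27-shGRK2. A further keratin-associated protein, KRTAP3-1, was under the filter and lower in Cal27-shGRK2, at 0.422, 0.397 and 0.424 FPKM against a listed 0 and 0.175 FPKM. PADI3, an enzyme that modifies trichohyalin in the hair follicle, fell (-1.04), as did the homeobox factor MSX2 (-0.74), the receptor LPAR6 (-0.52) and HOXC13 (-0.32), a known regulator of hair keratin genes. KRT34, the only type I hair keratin on the list that was in the table, was under the filter at 0.153 and 0.244 FPKM.

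Among proteins that anchor or bind keratin filaments, 17 of 21 listed were tested, 2 called higher and 6 lower, with a median log2 fold change of -0.06. The background for this list and the next, over all tested genes, was 15.0% called higher and 14.6% lower. The desmosomal plakophilin PKP1 fell (log2 fold change -1.36), as did desmoplakin, DSP, which ties keratin to desmosomes (-0.63), and TRIM29, which went from 54.6 to 26.7 FPKM. The cytolinker plectin, PLEC, rose (0.29), as did YWHAZ (0.17). Among 43 listed regulators of keratin genes 35 were tested, 6 called higher and 14 lower, with a median log2 fold change of -0.12. TP63, the basal epithelial regulator, fell (log2 fold change -1.51), as did CEBPA (-0.95) and SOX2 (-2.84), which passed the filter only through Cal27, and GATA3 (1.07), the AP-1 subunit FOSL1 (0.91) and SOX9 (0.84) rose.

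The genes whose levels moved most like KRT81 over the 5 libraries, by the root mean square distance of log2(FPKM + 1) from the Cal27 mean, were PRSS2, a trypsinogen (distance 0.057), C6orf15 (0.090), HCLS1 (0.097), the collagen VI chain COL6A2 (0.227) and the protease inhibitor CST6 (0.296). CST6 went from 28.1 to 198 FPKM and HCLS1 from 1.75 to 27.5 FPKM. PRSS2 was listed at 0, 0.0474 and 0 FPKM in the Cal27 libraries against 7.75 and 9.49 FPKM in Cal27-shGRK2. It therefore passed the filter only through Cal27-shGRK2. For KRT6A the nearest were the calcium-binding protein S100A8 (0.360), the collagenase MMP13 (0.367), AC019349.5 (0.379), the interferon-induced IFI6 (0.422) and the noncoding RNA H19 (0.427). S100A8 went from 25.7 to 1.13 FPKM, and IFI6 from 162 to 18.9 FPKM. MMP13, AC019349.5 and H19 were under 1 FPKM in both Cal27-shGRK2 libraries and passed the filter only through Cal27. AC019349.5 was listed at the same locus as KRT13, the type I partner of KRT4. With 5 libraries in 2 groups, closeness mostly reflects a like difference between the group means. The 1 added to FPKM also compresses changes of genes near 0, so a small distance does not mean a like fold change.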

How the data were processed

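RNA was sequenced from Cal27 and Cal27-shGRK2 cells with a stranded mRNA kit, per the labels' protocols. The submitters' processing notes name Bowtie2 2.2.6, TopHat2 2.1.0, Cuffdiff 2.2.1 and hg38; the sources used here do not state the annotation, read length or strand setting. Per library the deposited table gives FPKM and, from the authors' comparison, condition FPKM values, a log2 fold change, a test score, a p-value and a q-value. The Cal27 condition value equalled the mean of its columns in all 13339 genes of at least 1 FPKM (relative tolerance 1e-04), but that of Cal27-shGRK2 did so in only 44 of 13307. A further Cal27-shGRK2 library was therefore computed, as 3 times the condition value minus the 2 distinct columns, and used only as an alternative and in plots; 74 computed values below 0 were set to 0.

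The test was limma 3.58.1 (R 4.3.3; trend, robust) on log2(FPKM + 1), two-sided, for genes averaging 1 FPKM or more, with Benjamini-Hochberg adjustment and a threshold of 0.05. FPKM totals were 590163 to 644831 per library, and 13269 to 13369 genes had at least 1 FPKM. Data were simulated for this comparison with normal noise (13377 genes, 200 changed, 10 simulations). The fit recovered 92.2% of log2 changes of 0.5, 97.6% of those of 1 and 98.6% of those of 2. Of its calls 9.33% were false, above the threshold of 0.05. In the data 3957 genes were called, far more than were changed in the simulation, so these rates need not hold for them. Sequence windows and positions came from GENCODE v29. Alternatives covered the pseudocount, the filter, the scaling, the limma settings, a replicate block, summing of near copies and leaving out each library. The genes, lists and tests were chosen with earlier results of these data known. Named genes are the 10 keratins, their type I partners, their neighbours on chromosome 12, the called genes of each list with the largest changes (up to 3 in each direction) and the 5 genes nearest in pattern to KRT81 and to KRT6A; HOXC13, KRT15, KRT34, KRTAP3-1, CD68, CDH5 and PMEL were named after their values were seen.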

Additional observations from a re-analysis of the deposited data

How the results depend on the processing

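Over 16 alternatives no result reversed. KRT5, KRT7 and KRT80 kept their direction and call in all 16, KRT81 and KRT4 in all 15 that list them, KRT86 in 14 and KRT6B in 13; KRT6B was under the filter without Cal27 replicate 1. KRT6A lost its call in 5 of 15, without each Cal27 replicate (as given above) and with a replicate block, at an adjusted p of 0.19 with the shared library numbered 0 and 0.30 with it numbered 1; adding the computed library gave 0.0040. The cause was not tested. With a mean of at least 5 FPKM required, 5 keratins were tested and 5 called, since fewer pass that filter. Leaving out a library gave 6 to 8 keratins past the threshold, 2600 to 4028 genes in all, 1218 to 2205 higher and 1088 to 1843 lower; the lowest totals were 2600 without Cal27-shGRK2 replicates 0 and 1 and 2654 without replicate 2, where 1 library is assumed to vary like the Cal27 libraries. Whether the replicate numbers pair the samples is not known. Deviations of same-numbered libraries correlated at r = 0.080, -0.071 and 0.017 (13377 genes). These values cannot decide it, since deviations of 2 Cal27-shGRK2 libraries mirror each other and 1 library carries the numbers 0 and 1. The replicate block called 3960 or 3481 genes and 7 of the 8 keratins. KRT1 moved from -0.27 to -1.54 with a pseudocount of 0.1 and to -0.41 after rescaling to a common total. The sizes of other keratins also depended on the pseudocount. With 0.1, KRT4 went from -2.62 to -5.61 and KRT6B from -1.23 to -2.66. KRT81 went from 3.23 to 3.88 and KRT86 from 0.92 to 1.28. Depth is unknown, so levels near 0, as of KRT4 and KRT1 in Cal27-shGRK2, carry no interval; with 3 against 2 libraries the spread in Cal27-shGRK2 rests on 2 values.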

Other observations

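Features without a GENCODE v29 entry under their identifier were listed at other keratin loci too. AC055736.1, at the KRT5 locus, measured 3347, 4548 and 4357 FPKM in the Cal27 libraries and 2524 and 635 FPKM in Cal27-shGRK2, above KRT5 in 4 of the 5 libraries, and was not called (limma adjusted p 0.22). KRT5 itself differed little between those Cal27-shGRK2 libraries. AC055736.2, at the KRT6B locus, measured 17.4 and 22.8 FPKM in 2 Cal27 libraries and was listed at 0 in the remaining Cal27 library and in both Cal27-shGRK2 libraries (limma adjusted p 0.36).

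The further Cal27-shGRK2 library computed from the authors' condition value held 754.9 FPKM of KRT5, 258.8 of KRT80, 86.6 of KRT7, 21.2 of KRT81, 5.85 of KRT6A, 3.76 of KRT86, 0.179 of KRT6B and 0.052 of KRT4. Its KRT6A value lay beside that of the shared library (6.03 FPKM) and away from that of replicate 2 (15.4 FPKM). Its ratio of KRT81 to KRT86 was 5.64.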
